A study of Mus musculus with 9 samples.

Results

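The NF-κB family was examined as 10 genes out of the 27179 gene identifiers counted: the 5 DNA-binding subunits Nfkb1, Nfkb2, Rel, Rela and Relb, the 3 classical inhibitors Nfkbia, Nfkbib and Nfkbie, and the 2 nuclear inhibitors Nfkbid and Nfkbiz. They were chosen by name for their known place in the family. RNA bound to phosphorylated UPF1 (p-UPF1), a helicase of RNA surveillance that is phosphorylated on transcripts destined for decay, was sequenced after immunoprecipitation (RIP-seq). All 9 libraries came from CD43- splenic B cells of wild-type mice, cultured for 72 h. The labels give CD40L at 5 μg/mL, anti-IgM at 10 μg/mL and IL-4 at 20 ng/mL as the stimuli, while an anti-CD40 antibody stands in place of the ligand in the methods of the study. Lysate RNA was sequenced as input in 3 libraries, RNA recovered with normal rabbit IgG in 3, and RNA recovered with the p-UPF1 antibody in 3. The cells were primary, stimulated at once through CD40, the B cell receptor and the IL-4 receptor, and no unstimulated or UPF1-deficient cells entered this comparison. The comparison asks which NF-κB transcripts were recovered with p-UPF1 above their level in the lysate and above nonspecific recovery.

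NF-κB is a set of dimeric transcription factors that B cells activate downstream of the B cell receptor and CD40. In resting cells the dimers are held in the cytoplasm by inhibitor of κB (IκB) proteins. The IκB kinase (IKK) complex marks the inhibitors for degradation and frees the dimers, and several inhibitor genes are themselves NF-κB targets, which closes a negative feedback loop. The transcripts of inhibitors and cytokines in this pathway are also known substrates of regulated mRNA decay, in which Regnase-1 and Roquin recognise stem-loops in the 3′ untranslated region (UTR) and AU-rich element binding proteins recognise AUUUA pentamers. Regnase-1 is known to act together with UPF1.

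Sequences from 2 places in these transcripts are shown first, and their part in the values that follow was not tested. The first set shows the stop codon in capitals with its neighbouring bases for the 3 classical inhibitors, because nonsense-mediated decay depends on where translation ends relative to the exon junctions. All positions are on mouse GRCm38, the assembly that mm10 names, and all sequences are written 5′ to 3′ on the transcript strand.
Nfkbie, last exon, chr17:45562053-45562082, plus strand: ctatgtactgacTGAagctcggatgggtcc
Nfkbia, last exon, chr12:55489907-55489936, minus strand: cgtctgacattaTAAgtggaaagtggcaaa
Nfkbib, across the last exon junction, between 28758999 and 28759117 of chromosome 7, minus strand: cccaaccctgccTGActtaagtcccgaccc
The last exon junction lay 66 nt before the end of the stop codon in Nfkbie and 48 nt before it in Nfkbia. In Nfkbib a junction lay 5 nt after it.

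The second set shows stem-loops in 3′ UTRs of the 2 nuclear inhibitors, the loop in capitals, because a short stem closing a pyrimidine-purine-pyrimidine loop of 3 bases is the kind of structure that Regnase-1 and Roquin recognise.
Nfkbiz, 3′ UTR, chr16:55812613-55812629, minus strand: ttgtttcTATgaaacaa
Nfkbiz, 3′ UTR, chr16:55812581-55812605, minus strand: tagttcactatTATatagtggatta
Nfkbid, 3′ UTR, chr7:30428401-30428417, plus strand: tgatttcTGTgaaatcg
Nfkbid, 3′ UTR, chr7:30428430-30428444, plus strand: tgtttcTGTgaaaca
The first Nfkbiz stem had 7 base pairs and the second 11, and the Nfkbid stems had 7 and 6, with G-U pairs allowed. These are matches of letters in the annotated transcripts, not sites shown to be used.

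The deposited values were raw read counts per gene, and the libraries held between 17372510 and 24945286 counts. Levels are given as CPM (counts scaled to a common library total, with TMM factors), and differences as log2 fold changes with their standard error (SE). Adjusted P denotes the P value of edgeR's quasi-likelihood test after Benjamini-Hochberg adjustment over the 13129 genes tested, with 3 libraries per group. The labels do not say whether the 3 libraries of a group came from separate mice or cultures, so a P value measures the spread between these libraries, which may be technical. Replicate libraries differed least among the input and most among the IgG libraries, with a chi-square per degree of freedom of 1.38 to 1.73 for input, 4.64 to 9.94 for IgG and 2.83 to 4.04 for p-UPF1. The 6 B cell markers summed to 3200 to 3223 CPM in input, 2494 to 2584 with IgG and 2398 to 2471 with p-UPF1, though single markers went both ways, with means of 269 CPM in input against 32.8 with p-UPF1 for Cd79a, and 58.0 against 182 for Pax5. The 5 plasma cell markers, which include the target gene Irf4, summed to 767 to 793 CPM in input, 839 to 934 with IgG and 1592 to 1648 with p-UPF1, almost wholly through Irf4 (a mean of 502 CPM in input against 1487 with p-UPF1), while Xbp1 had 254 against 116, Prdm1 16.4 against 9.39, Jchain 3.32 against 0.942 and Sdc1 3.87 against 9.32. The part of these markers in the results was not tested. The T cell markers summed to at most 1.68 CPM in a library, the NK cell markers to at most 0.858 and the erythroid markers to at most 0.858. Among the 6 myeloid markers only Adgre1 was well above 0, at a mean of 131 CPM in input, 89.3 with IgG and 57.8 with p-UPF1, with Csf3r at 0 throughout, and its part in the results was not tested. TMM factors centre a trimmed mean of the log ratios near 0, so a log2 fold change is relative to that centre, and the amount of RNA recovered was not measured. In a level measured in a bulk lysate, the number of cells that express a gene and the RNA per cell cannot be told apart, and precipitates were taken from the lysate after the input was set aside.

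All 10 genes passed the filter on low counts. Nfkbie was the 1 gene of the 10 that met the study's criterion for p-UPF1-bound RNA, which asks for log2 fold changes of 1 or more against IgG and 2 or more against input, both with adjusted P under 0.05. Over all tested genes 6.25% met it, so 1 of 10 is near the background. Over IgG, 2 genes of the family were higher in p-UPF1 and 7 were lower, where 40.4% of all tested genes were higher and 42.2% lower. Over input the family again had 2 genes higher and 7 lower, beside 40.8% higher and 42.6% lower among all tested genes. Both counts share the p-UPF1 libraries and are not independent of each other. Rel, Nfkbia and Nfkbib were lower by a log2 of 1 or more in both comparisons, 3 of 10 genes where 19.1% of all genes were. The median log2 fold change of the 10 was -0.58 over IgG and -0.54 over input, beside -0.03 in both comparisons for all tested genes.

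**Figure D1:**
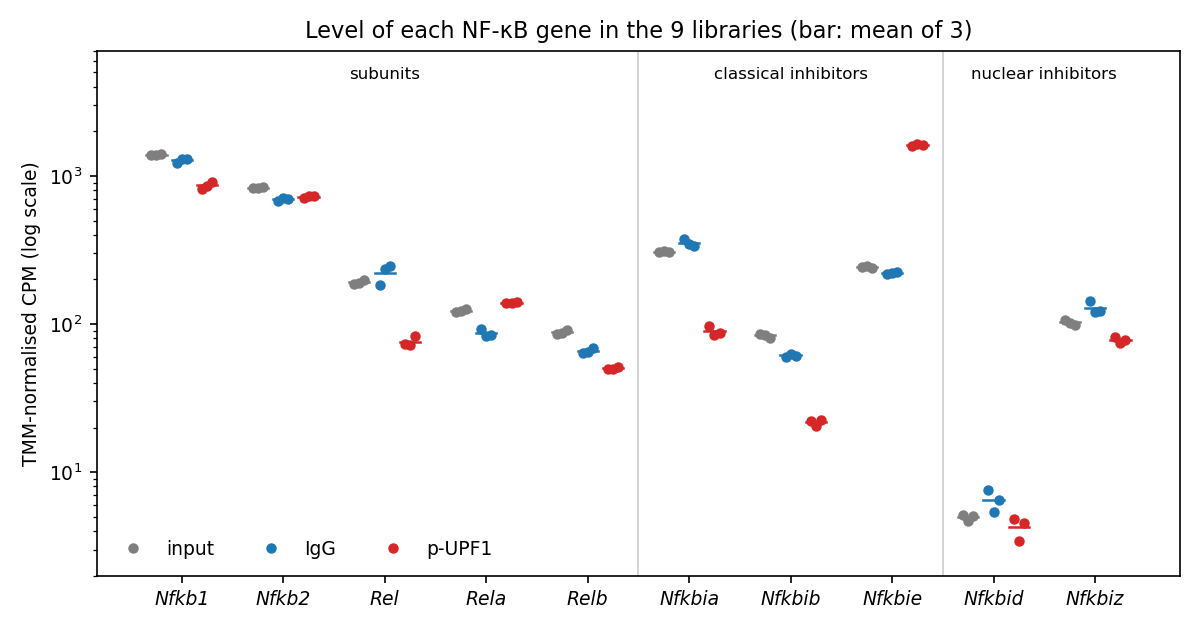
TMM-normalised CPM on a log axis for each of the 10 genes, with 1 point per library (grey input, blue IgG, red p-UPF1) and a bar at the mean of 3. The 3 p-UPF1 points of Nfkbie lie between 1595 and 1650.4 CPM, above its input and IgG points at 217 to 248, while those of Nfkbia, Nfkbib and Rel lie below theirs.

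Nfkbie encodes IκBε, an inhibitor that retains RelA and c-Rel dimers in the cytoplasm and is induced by NF-κB with a delay relative to IκBα. The gene (NCBI Gene 18037) lies on chromosome 17 between 45555700 and 45563169 on the plus strand. Its level was 245, 248 and 240.1 CPM in the input libraries and 217, 222 and 226 CPM in the IgG libraries. In the p-UPF1 libraries it stood at 1595, 1650.4 and 1625 CPM, from 35858 to 37864 reads per library. All 3 p-UPF1 libraries were above all others, and they differed among themselves far less than from either control, with a mean of 1624 ± 27.7 (SD, n = 3). The rise was 7.33-fold over IgG, a log2 fold change of 2.87 ± 0.04 (SE; edgeR quasi-likelihood, adjusted P = 2.27e-18), and 6.65-fold over input, a log2 fold change of 2.73 ± 0.04 (adjusted P = 1.10e-18). Its place among all tested genes was the 98.6th percentile over IgG and the 98.4th over input. In IgG it was slightly below input, at a log2 fold change of -0.14 (adjusted P = 0.00359), a call that was lost under 6 of 22 alternative settings.

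Nfkbia encodes IκBα, the rapidly resynthesised inhibitor that terminates RelA activity, and it moved the other way. The gene (18035) lies on chromosome 12 between 55489409 and 55492647 on the minus strand. Input libraries held 307, 310.3 and 307 CPM and IgG libraries 373, 348 and 338 CPM. The p-UPF1 libraries held 96.4, 84.8 and 87.1 CPM, well below both. The log2 fold change was -1.98 ± 0.05 over IgG (edgeR, adjusted P = 2.10e-15) and -1.78 ± 0.05 over input (adjusted P = 5.90e-15). Nfkbia was slightly higher in IgG than in input, with a log2 fold change of 0.20 (adjusted P = 0.00299).

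Nfkbib encodes IκBβ, an inhibitor that is degraded more slowly than IκBα on stimulation. The gene (18036) lies on chromosome 7 between 28758251 and 28766644 on the minus strand. Its level fell from 86.0, 84.7 and 80.9 CPM in input to 22.1, 20.5 and 22.5 CPM in p-UPF1, with 60.1, 63.0 and 61.2 CPM in IgG. The 3 groups were fully separated, with p-UPF1 at the bottom. The log2 fold change was -1.50 ± 0.06 over IgG (edgeR, adjusted P = 1.83e-13) and -1.95 ± 0.05 over input (adjusted P = 3.89e-15), the lowest over input of the 10 genes. Of its exon sequence 311 nt overlap Ccer2 on the opposite strand, and since the use of strand in counting is not given in the sources used here, reads of overlapping genes cannot be told apart.

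Nfkbie and the other classical inhibitors thus went in opposite directions, which can be read within a library without any scaling between libraries. The ratio of Nfkbie to Nfkbia counts was 0.782 to 0.800 in the input libraries and 0.582 to 0.667 in the IgG libraries. In the p-UPF1 libraries it was 16.5 to 19.5. Nfkbie to Nfkbib was 2.84 to 2.97 in input, 3.52 to 3.68 with IgG and 72.1 to 80.5 with p-UPF1. The pairs were chosen after their values were seen, and 3 libraries against 3 cannot give an exact permutation P below 0.1, so the ratios are a description.

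Rel encodes c-Rel, a subunit that carries a transactivation domain and is needed for B cell proliferation. The gene (19696) lies on chromosome 11 between 23736847 and 23770969 on the minus strand. It had 188, 188 and 197 CPM in input and 183, 236 and 247 CPM in IgG, with IgG library A apart from the others. The p-UPF1 libraries had 73.7, 72.4 and 82.6 CPM, below all others. The log2 fold change was -1.54 ± 0.09 over IgG (edgeR, adjusted P = 4.63e-11) and -1.32 ± 0.09 over input (adjusted P = 3.12e-10). Between IgG and input the libraries overlapped, and the log2 fold change of 0.22 (adjusted P = 0.0366) lost its call under 7 of 22 settings.

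Rela encodes the other broadly used transactivating subunit, the main partner of p50, and it was the second gene of the family that was higher in p-UPF1 in both comparisons. The gene (19697) lies on chromosome 19 between 5637442 and 5648134 on the plus strand. Its input level was 121, 123 and 126 CPM and its IgG level 92.5, 83.4 and 84.0 CPM. In p-UPF1 it was 138, 139 and 140.2 CPM. The groups did not overlap, but the distance to input was small, with a log2 fold change of 0.18 ± 0.04 (edgeR, adjusted P = 0.00171) beside 0.69 ± 0.05 over IgG (adjusted P = 4.97e-10). IgG was below input by a log2 fold change of -0.51 (adjusted P = 2.12e-07), so the larger value over IgG includes that lower level. Within libraries the ratio of Rela to Rel counts was 0.640 to 0.653 in input, 0.340 to 0.507 with IgG and 1.70 to 1.93 with p-UPF1.

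Nfkb1 and Nfkb2 encode the precursors p105 and p100, which are processed to the subunits p50 and p52 and, before processing, act as inhibitors through their own ankyrin repeats. Nfkb1 (18033; chromosome 3, 135584655 to 135691969, minus strand) had 1381, 1394 and 1409 CPM in input and 1226, 1304 and 1292 CPM in IgG. In p-UPF1 it had 821, 853 and 911 CPM. It was lower in every p-UPF1 library than in any control, with a log2 fold change of -0.56 ± 0.04 over IgG (edgeR, adjusted P = 1.53e-09) and -0.70 ± 0.04 over input (adjusted P = 8.57e-11).

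Nfkb2 (18034; chromosome 19, 46300994 to 46312400, plus strand) had 826, 826 and 839.9 CPM in input, 681, 705 and 703 CPM in IgG and 707, 728 and 727 CPM in p-UPF1. The p-UPF1 libraries lay just above the IgG libraries and below the input libraries. Its log2 fold change over IgG, 0.05 ± 0.03 (edgeR, adjusted P = 0.187), did not pass the test. It turned to a lower call at -0.11 with scaling by library size alone and at -0.0868 with upper-quartile factors. With an IgG library as the TMM reference, and without p-UPF1 library A, it was called higher at 0.08. Over input it was -0.20 ± 0.03 (adjusted P = 3.71e-05), a call lost without the filter on low counts. The exons of Nfkb2 overlap 316 nt of Psd on the opposite strand, a gene at a mean of 97.7 CPM in input, 82.3 with IgG and 269 with p-UPF1, and 1236 nt of the long noncoding RNA 4833438C02Rik at 10.8, 11.2 and 7.58 CPM. The part of these overlaps in the Nfkb2 counts was not tested.

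Relb encodes the subunit that pairs mainly with p52 in the noncanonical pathway downstream of CD40. The gene (19698; chromosome 7, 19606217 to 19629438, minus strand) ranged from 86.3 to 91.8 CPM in input, from 64.1 to 69.1 with IgG and from 49.4 to 51.4 with p-UPF1. The 3 ranges stepped down without overlap, with a log2 fold change of -0.39 ± 0.05 over IgG (edgeR, adjusted P = 1.80e-06) and -0.81 ± 0.05 over input (adjusted P = 1.03e-10). Of the 5 subunits 3 were lower and 1 higher over IgG, beside 42.2% lower and 40.4% higher among all tested genes, and 4 were lower and 1 higher over input, beside 42.6% and 40.8%.

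Nfkbiz and Nfkbid encode IκBζ and IκBNS, nuclear proteins that bind p50 on DNA and tune a subset of target genes, and both transcripts carry the stem-loops shown above. Nfkbiz (80859; chromosome 16, 55811375 to 55838954, minus strand) had 98.9 to 107 CPM in input, 120.3 to 144 with IgG and 74.4 to 81.9 with p-UPF1. It was lower in p-UPF1 than in both controls, with a log2 fold change of -0.72 ± 0.06 over IgG (edgeR, adjusted P = 2.00e-08) and -0.39 ± 0.06 over input (adjusted P = 3.08e-05). Nfkbid (243910; chromosome 7, 30421731 to 30428749, plus strand) was the rarest of the 10, with 76 to 142 reads per library. Its level was 5.11, 4.69 and 5.04 CPM in input, 7.55, 5.41 and 6.52 in IgG and 4.84, 3.43 and 4.53 in p-UPF1. Its p-UPF1 libraries lay below the IgG libraries, with a log2 fold change of -0.60 ± 0.16 (edgeR, adjusted P = 0.00307), but overlapped the input libraries, with -0.21 ± 0.17 (adjusted P = 0.246).

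**Figure D2:**
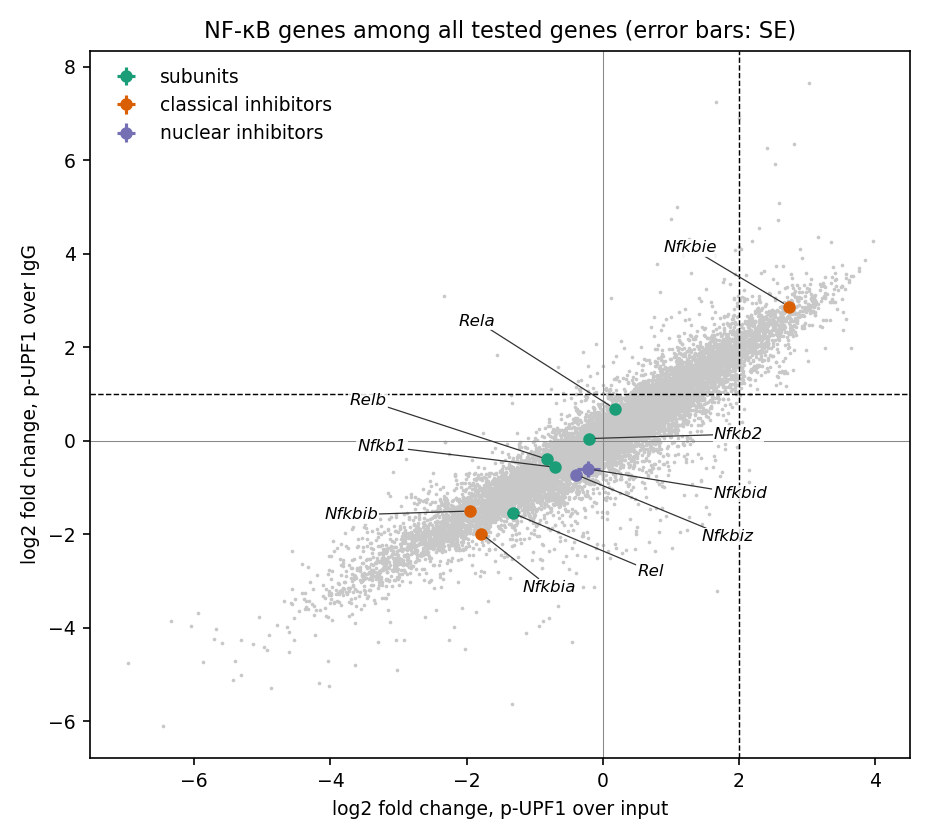
Log2 fold change of p-UPF1 over input (x axis) and over IgG (y axis) for all 13129 tested genes (grey) and the 10 NF-κB genes (colours, bars for SE); dashed lines mark the thresholds of 2 and 1. Nfkbie lies in the upper right at 2.73 and 2.87, and Nfkbia, Nfkbib and Rel lie below -1 on both axes; the axes share the p-UPF1 libraries.

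IgG against input gives the background of the precipitation. In that comparison 3 of the 10 genes were higher (Rel, Nfkbia, Nfkbiz) and 6 lower (Nfkb1, Nfkb2, Rela, Relb, Nfkbib, Nfkbie), beside 18.2% higher and 34.7% lower among all tested genes. The values ran from -0.51 for Rela to 0.39 for Nfkbid, whose adjusted P of 0.0557 by edgeR did not pass. The call of Nfkb1, at -0.13 (adjusted P = 0.0139), was lost under 9 of 22 settings and that of Nfkbid was gained under 10. The range over IgG was wider, from -1.98 to 2.87, as it was for all tested genes, whose log2 fold changes had an SD of 0.516 in IgG over input and 1.34 in p-UPF1 over IgG.

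Levels of different genes can be set side by side only per length, here as CPM per kilobase of merged exons. In the lysate the order from the highest was Nfkb1 at 306 ± 3.08 CPM per kb (SD, n = 3), Nfkbia at 195 ± 1.24, Nfkb2 at 113 ± 1.10, Nfkbie at 100.2 ± 1.67, Rela at 43.0 ± 0.910, Nfkbib at 39.5 ± 1.25, Relb at 30.0 ± 1.03, Rel at 25.6 ± 0.679, Nfkbiz at 13.5 ± 0.531 and Nfkbid at 1.73 ± 0.0785. No neighbours in that order overlapped. In the p-UPF1 libraries Nfkbie came first at 666 ± 11.4 CPM per kb, ahead of Nfkb1 at 189 ± 10.0 and Nfkb2 at 98.2 ± 1.66. Nfkbiz at 10.3 ± 0.493, Nfkbib at 10.2 ± 0.505 and Rel at 10.2 ± 0.745 could not be ordered there, since their libraries overlapped. In IgG the order began as in input, and Rela, Rel and Nfkbib overlapped as neighbours. Part of the order depends on the length used: per kb of 1 representative coding transcript, Nfkb2 was at 264 CPM per kb in input, above Nfkbia at 195, and at 229.5 ± 3.88 with p-UPF1, above Nfkb1 at 209 ± 11.1. Nfkbiz, at 19.0 with p-UPF1 on that length, then stood apart from Nfkbib and Rel, and in IgG its libraries overlapped those of Rela, Rel, Relb and Nfkbib, so that it could not be ordered among them. Nfkbie remained first with p-UPF1 at 667.

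As a share of the summed CPM per kb of the 10 genes, Nfkbie made up 11.5% ± 0.212 (SD, n = 3) in input, 11.1% ± 0.190 with IgG and 60.1% ± 0.673 with p-UPF1. The share of Nfkb1 was 35.3% in input, 34.1% with IgG and 17.1% with p-UPF1, and that of Nfkbia was 22.5%, 27.3% and 5.12%. With the length of 1 representative coding transcript per gene in place of merged exons, the Nfkbie share in p-UPF1 was 52.2%. The family as a whole took a similar part of all reads everywhere, from 0.328% to 0.335% of counts in input, 0.330% to 0.333% with IgG and 0.344% to 0.354% with p-UPF1. That part is of raw counts, not divided by length as the shares are. The makeup of the family differed more. A share can also fall because another gene rises: that of Rela was 4.95% in input and 4.39% with p-UPF1. Its level was 43.0 CPM per kb in input and 48.6 with p-UPF1.

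**Figure D3:**
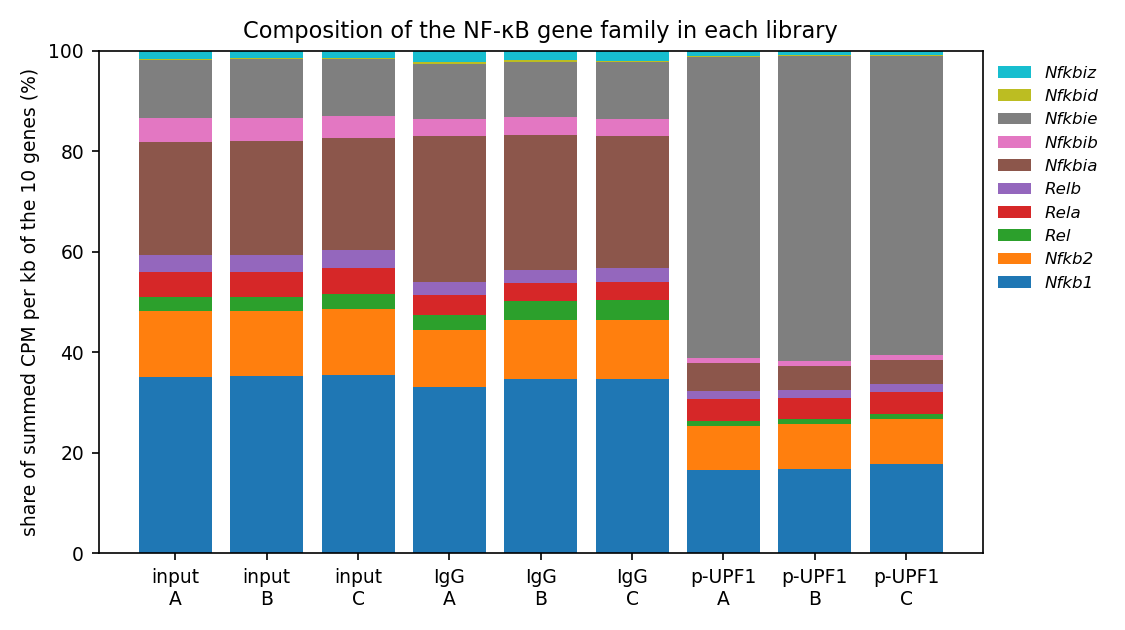
Share of each of the 10 genes in their summed CPM per kb of merged exons (y axis, percent) for each of the 9 libraries (x axis, stacked bars starting at 0). The Nfkbie segment is 11.5% on average in input, 11.1% with IgG and 60.1% with p-UPF1, while the Nfkb1 and Nfkbia segments shrink in the p-UPF1 libraries.

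Genes with a pattern like that of Nfkbie over the 9 libraries were sought among 8991 genes of at least 10 mean CPM, by the Euclidean distance between log2 CPM values centred on each gene's mean. The closest were Grap at a distance of 0.0663, Trub2 at 0.0907 and Erlin1 at 0.149, with log2 fold changes over input of 2.71, 2.79 and 2.78. A distance of 1 or less held for 432 genes. For Nfkbib, the lowest of the 10 over input, the closest were Pdia3 at 0.124, Eif1ax at 0.135 and Nsmce1 at 0.142, and 1387 genes lay within 1. Either pattern was thus shared with many genes outside the family.

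Transcript features that played no part in choosing the genes were read from 1 representative coding transcript per gene in GENCODE M21. The 3′ UTR of Nfkbie had 1102 nt, close to the median of 1017 nt over 11861 tested genes with a transcript model, and a GC content of 50.2% beside a median of 44.7%. It held no ATTTA pentamer and no stem-loop of at least 5 pairs, and the same was true of Rela and Relb. Rel had the longest 3′ UTR at 5418 nt, with 12 pentamers and 10 stem-loops, and Nfkb2 the shortest at 133 nt. Pentamers were also found in Nfkb1 and Nfkbiz (4 each), Nfkbia (2), Nfkb2 (1) and Nfkbid (1), 6 of 10 genes in all where 66.9% of the tested genes had one. Stem-loops were found in 6 of 10 genes beside 60.7% of tested genes, with 4 each in Nfkbiz and Nfkbid, 2 in Nfkbia and 1 each in Nfkb1 and Nfkbib. With at least 6 pairs required, Rel, Nfkbid, Nfkbiz and Nfkbib still had one, 4 of 10 beside 40.3%. Only the transcript strand was searched, and pentamers and stem-loops may overlap.

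The annotation was also searched for signs of nonsense-mediated decay. At least 1 transcript classed as a nonsense-mediated decay substrate was listed for Nfkb1 (2), Nfkb2 (1), Rela (2) and Relb (1), 4 of 10 genes beside 29.4% of tested genes. None was listed for Nfkbie or for any other inhibitor. An ATG upstream of the coding region, another feature linked to this decay, was found in 6 of 10 genes beside 51.7% of tested genes, with 6 in Nfkbiz, 4 in Nfkbid, 3 in Nfkbib and 1 each in Nfkbie, Nfkb1 and Rela. In the 3 classical inhibitors a junction after the stop codon was seen only in Nfkbib, the 5 nt already given. The count table sums all transcripts of a gene, so the isoform recovered with p-UPF1 is not known for any of the 10. Across the tested genes the log2 fold change over input had a Spearman correlation of 0.331 with 3′ UTR length and of 0.270 with 3′ UTR GC content. It was 0.195 with the number of stem-loops and 0.108 with the number of pentamers. This is a description across genes that share libraries and are not independent. Rel, with the longest 3′ UTR of the 10, had the third lowest value of the 10 over input.

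**Figure D4:**
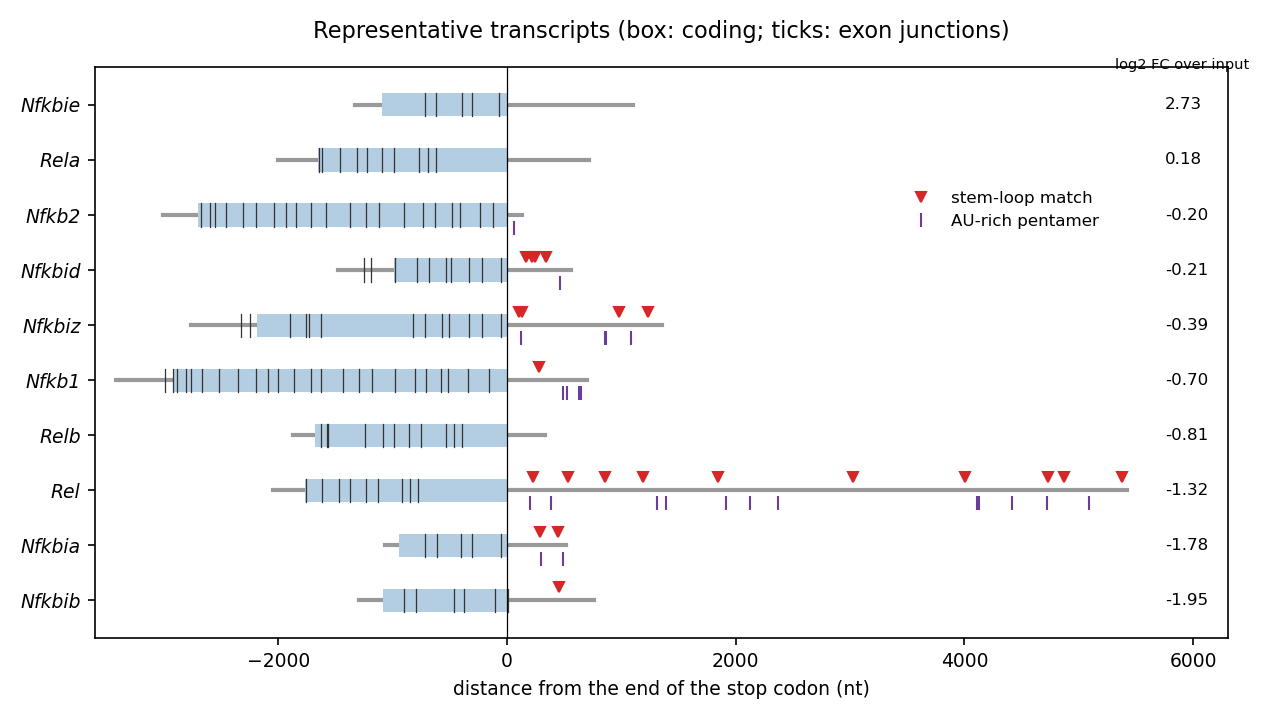
Representative transcripts of the 10 genes aligned on the end of the stop codon (x axis, distance in nt), with coding regions as boxes, exon junctions as ticks, stem-loop matches as triangles and ATTTA pentamers as short bars, ordered by the log2 fold change of p-UPF1 over input printed at the right. Nfkbie at 2.73 carries neither mark in its 1102 nt 3′ UTR, and neither do Rela at 0.18 and Relb at -0.81. Rel at -1.32 carries the most of both.

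The rest of the pathway was taken from 4 lists of 59 genes, all of them tested: the kinases above the inhibitors, negative regulators, target genes of B cells, and the proteins of stem-loop decay. Over IgG 29 of the 59 were higher and 27 lower, and over input 29 were higher and 26 lower. These shares lie near those of all tested genes given above for lower calls and somewhat above them for higher calls. The combined criterion was met by 9 of the 59, beside the 6.25% of all tested genes.

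The kinases IKK and NIK and their relatives act above the inhibitors and release the dimers. Of 7 genes, 5 were higher and 2 lower in p-UPF1 over both controls, beside 40.4% higher and 42.2% lower over IgG and 40.8% and 42.6% over input among all tested genes. Their median log2 fold change over input was 1.08. Map3k14, which encodes NIK, the kinase that starts the noncanonical pathway, rose from a mean of 57.7 CPM in input and 68.0 with IgG to 368 with p-UPF1, a log2 fold change of 2.67 ± 0.05 over input and 2.43 ± 0.05 over IgG. Ikbkg, the regulatory subunit NEMO of the IKK complex, had means of 74.3, 84.8 and 304 CPM, with 2.03 ± 0.06 over input and 1.84 ± 0.05 over IgG. Ikbkg passed the criterion narrowly: it missed it with scaling by library size alone, with upper-quartile factors and without p-UPF1 library B. Tbk1, a kinase related to the IKK catalytic subunits, was the lowest of the list at -0.50 over input. Opposite-strand exons overlap Ikbkg by 51 nt (G6pdx) and 42 nt (Fam3a) and Map3k14 by 127 nt (Gm34823).

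Among 19 negative regulators, 7 were higher and 10 lower over IgG, and 7 higher and 9 lower over input, where 40.4% and 42.2% of all tested genes were higher and lower over IgG and 40.8% and 42.6% over input. The median of the list was -0.20 over input. Tnfaip3 encodes A20, a ubiquitin-editing enzyme that shuts off signalling to IKK, and met the criterion at a log2 fold change of 2.30 ± 0.04 over input and 1.89 ± 0.04 over IgG. Its mean level was 386 CPM in input, 513 with IgG and 1896 with p-UPF1. At the other end, Commd1, which promotes removal of RelA, was at -2.77 over input, with 36.2, 24.7 and 5.31 CPM. Its exons overlap 419 nt of Zrsr1 on the opposite strand, a gene at 16.7, 16.8 and 8.40 CPM.

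Of 30 target genes in B cells, 16 were higher and 13 lower over IgG, and 16 higher and 14 lower over input, beside 40.4% higher and 42.2% lower over IgG and 40.8% and 42.6% over input among all tested genes, which divided almost evenly too. The criterion was met by 7, beside 6.25% of all tested genes: Tnfaip3, which is in both lists, Irf1, Cd80, Cd83, Gadd45b, Cflar and Slamf1. Cd83, a surface protein of activated B cells, rose from a mean of 1066 CPM in input and 1057 with IgG to 15341 with p-UPF1, a log2 fold change of 3.85 ± 0.04 over input and 3.86 ± 0.04 over IgG. Gadd45b, a stress-response protein, had 3.11 ± 0.06 over input and Irf1, an interferon regulatory transcription factor, 3.07 ± 0.05. Cflar, an inhibitor of caspase activation, had 2.81 ± 0.07 over input and 1.94 ± 0.07 over IgG, with IgG itself above input by 0.87. Slamf1 had 2.54 ± 0.08 and the costimulatory ligand Cd80 2.17 ± 0.08 over input. The lowest of the list was Bcl2a1d at -2.77, an antiapoptotic gene with near-identical copies, among which reads may be split.

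Of the 5 genes of stem-loop decay, 2 were higher, 2 lower and 1 did not pass over IgG, and the same numbers held over input, beside 40.4% higher and 42.2% lower over IgG and 40.8% and 42.6% over input among all tested genes. None met the criterion, which 6.25% of all tested genes met. Zc3h12a, which encodes Regnase-1, stood at 20.9 CPM in input, 19.6 with IgG and 18.2 with p-UPF1, with a log2 fold change of -0.10 over IgG that did not pass (edgeR, adjusted P = 0.192) and -0.20 over input (adjusted P = 0.0145). The highest of the list was the Roquin gene Rc3h2 at 0.93 over input and the lowest was Zc3h12c at -0.58.

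**Figure D5:**
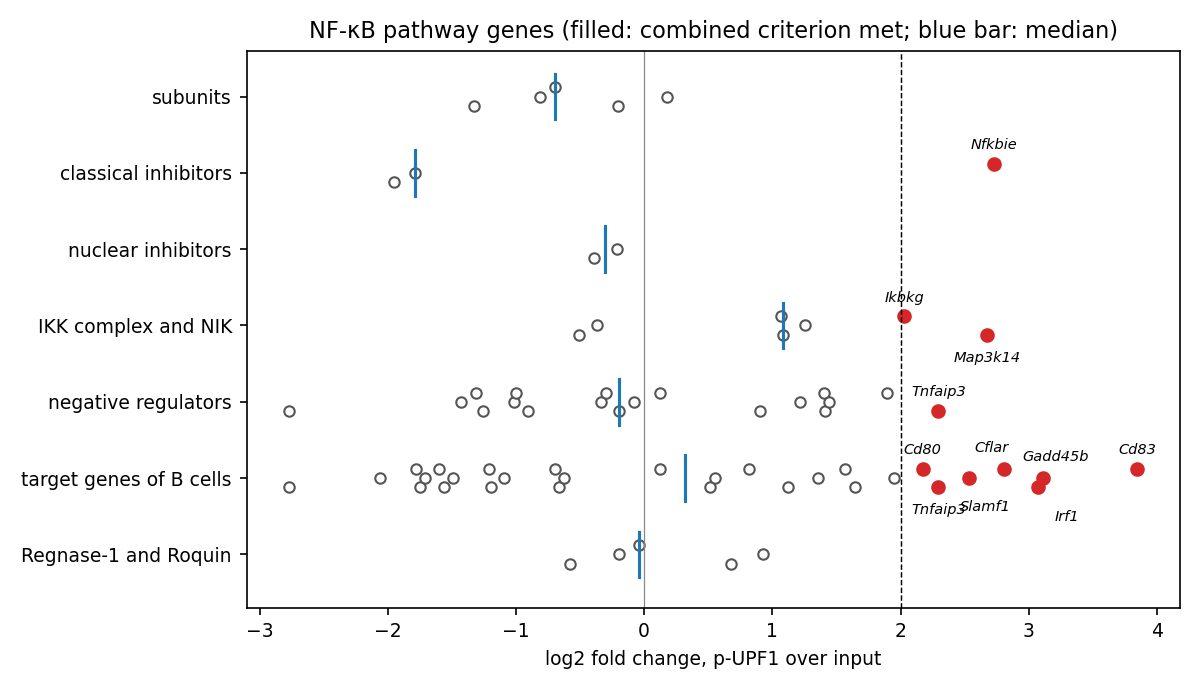
Log2 fold change of p-UPF1 over input (x axis) for each gene of the NF-κB family and of 4 pathway lists (rows), with filled red points for genes that met the combined criterion, open points for the others and a blue bar at each list's median; the dashed line marks 2. Nfkbie stands at 2.73 while Nfkbia and Nfkbib stand at -1.78 and -1.95, and the filled points of the other lists run from 2.03 for Ikbkg to 3.85 for Cd83.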

How the data were processed

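Input, IgG and p-UPF1 RIP-seq libraries, 3 each, were compared. The authors deposited raw counts of reads for each NCBI Gene number. The submitters' processing notes name cutadapt, HISAT2, featureCounts and mm10, without versions, and the strand setting for RIP-seq is not given in the sources used here. No molecular identifiers were used, so counting error understates the true error. Columns carry letters, so each was assigned to its group only.

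The members and gene lists were chosen with earlier results of these data known. Counts of all 9 libraries were filtered with filterByExpr (minimum count of 10, minimum total of 15), scaled with TMM and tested two-sided with edgeR 4.0.16 in R 4.3.3 (glmQLFit and glmQLFTest, prior count 0.125, 6 residual degrees of freedom), with Benjamini-Hochberg adjustment over 13129 genes, which held 99.9% of the counts. The procedure was tested on simulated data in which most genes were unchanged. Most genes differed in the real precipitates, so that test does not cover the scaling between them. DESeq2 1.42.0 and limma-voom (limma 3.58.1), other scalings, filters, left-out libraries and a block on the column letter were alternatives. Symbols and coordinates came from RefSeq GRCm38.p6, in which 1904 identifiers had no symbol, and transcripts from GENCODE M21 (principal isoform, then longest coding region). That annotation classes most transcripts with a junction more than 50 nt after the stop codon as decay substrates, so representative coding transcripts rarely have one. Distances between patterns used log2(CPM + 0.5). Named were all 10 members, list genes that met the criterion or had the largest or smallest change, and the 3 genes nearest in pattern to the members highest and lowest over input. Also named were Zc3h12a, which encodes Regnase-1, cell type markers and genes that overlap a named gene. One further list of pathway genes is not reported here.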

Additional observations from a re-analysis of the deposited data

How the results depend on the processing

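Over 22 alternative settings of scaling, filter, test and left-out library, the differences of the members over IgG and over input kept their direction and call, apart from Nfkb2. Its log2 fold change over IgG (0.05) was -0.11 with library size alone and -0.0868 with upper-quartile factors, and both passed the test as lower. These 2 settings moved the median of all genes to -0.19 and -0.17. It passed as higher with an IgG library as the TMM reference (0.08) and without p-UPF1 replicate A (0.08). Over input it no longer passed without the low-count filter (-0.07). Nfkbie met the combined criterion under every setting run. Cd83 in IgG over input (-0.01) did not pass the test. It turned to 0.10 with library size alone and with only the 2 groups compared. It turned to 0.095 when TMM took an input library as reference and to 0.088 when TMM took one of IgG. Each of these values passed. The Nfkbie share in p-UPF1 was 52.2% with the length of the representative transcript (60.1% with merged exons). These settings were run for 19 genes, the 10 members and the 9 others that met the criterion. Over their fold changes in the 3 comparisons 29 calls were lost and 25 gained, of which 28 and 21 were in IgG over input. Ikbkg missed the combined criterion under 3 settings. The numbered labels do not explain the column letters. With the letter as a replicate block, a setting chosen after seeing the data, Nfkb2 over IgG was 0.05 (adjusted P = 0.150 by edgeR) and the member counts over IgG and over input were unchanged, while Nfkbid in IgG over input passed (0.39). Same-lettered libraries of different groups correlated in their deviations at -0.0051 to 0.0542, and differently lettered ones at -0.0560 to 0.0222. All of these lay below the threshold of 0.1. The range of the same-lettered pairs was the higher, so whether the letters mark pairs cannot be told from these small values. Nfkbid had the fewest reads of the members, at most 142 per library, and the largest SE, 0.17 over input.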
